A study of Mus musculus with 17 samples.

Results

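The genes described here run fatty acid oxidation in mitochondria and peroxisomes or belong to the PPAR-alpha programme that controls it. They were chosen by name, with no measured value in the rule, but with earlier results of these data known. All 35 were found by their mouse Ensembl gene IDs among the 53379 genes of the deposited count table. All 35 also passed the filter on low counts and are among the 17766 genes tested. The tissue was kidney cortex enriched for glomeruli, from 17 BTBR mice. The first group is 7 ob/ob mice given atrasentan, which blocks the endothelin A receptor. Its daily dose was 5 mg per kg, taken with the drinking water from 18 weeks of age for 6 weeks. The second group is 5 ob/ob mice given saline over the same weeks. The third is 5 wild type BTBR mice killed at the same age of 24 weeks, for which no treatment is given. The ob/ob mice of both groups carry the ob allele of the leptin gene on both chromosomes, and on the BTBR background such mice become obese and diabetic. Leptin is missing from the whole body, so the model does not single out the kidney or the glomerulus. The genotype labels read BTBR ob for the atrasentan group, ob/ob-d30 for the saline group and WT-d30 for wild type, and no source used here explains the ending.

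Fatty acids are activated to acyl-CoA, carried into mitochondria by the carnitine shuttle and shortened there by repeated rounds of dehydrogenation, hydration, dehydrogenation and thiolysis. Peroxisomes shorten very long and branched chains with their own set of enzymes. PPAR-alpha, the fatty acid receptor encoded by Ppara, binds DNA together with a retinoid X receptor and raises the transcription of many of these enzymes. In the kidney the proximal tubule is known for drawing most of its energy from this pathway.

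Gene reads per library ran from 37252939 to 52528747 with atrasentan, from 35938445 to 40268662 with saline and from 29161833 to 40965108 in wild type. Reads outside genes took 3.97% ± 0.849 of the reads with atrasentan (SD, n = 7), 7.34% ± 0.828 with saline (n = 5) and 7.85% ± 0.946 in the wild type libraries (n = 5). The 12 podocyte markers checked, which define the filtration cell of the glomerulus, were present in all groups. Their mean ran from 5.66 to 7.28 log2 CPM (counts scaled to library size) with atrasentan, from 7.01 to 8.18 with saline and from 8.21 to 9.02 in wild type. Proximal tubule RNA was present as well, at levels that differed between the groups, with the wild type range overlapping both others. The 22 proximal tubule markers, none of them a member, had a mean of 3.75 ± 0.98 log2 CPM with atrasentan (2.32 to 5.53), 6.81 ± 1.05 with saline (5.66 to 7.86) and 5.22 ± 0.38 in the wild type (4.88 to 5.80). Their summed level was 270.9 to 2836 CPM with atrasentan, 3291 to 17920 CPM with saline and 1807 to 3896 CPM in wild type, and no marker was at 0 reads in any group. The mean was higher with saline than in wild type by 1.59 (two-sided exact permutation test over libraries, adjusted p = 0.0159 over the 3 comparisons), lower with atrasentan than with saline by a difference of -3.06 (adjusted p = 0.00379, from the smallest exact p that 7 against 5 libraries can give) and lower with atrasentan than in wild type (difference -1.46, adjusted p = 0.0159). In tissue libraries fewer cells of a type and less RNA per cell cannot be told apart.

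The members stood highest in the saline-treated ob/ob mice. Of 35 members 2 had their highest mean with atrasentan, 32 with saline and 1 in the wild type, and the lowest mean was found with atrasentan for 20 members and in wild type for 15. With atrasentan 24 of 35 members fell against saline, none rose and 11 did not pass the test (edgeR quasi-likelihood test, Benjamini-Hochberg adjusted p under 0.05 over all genes), a share of 68.6%. Over all genes 18.5% were called lower and 15.3% higher in that comparison. For no member did all atrasentan libraries lie below all saline libraries, as they did for 5.76% of all genes. The median log2 fold change was -0.52 over the members and -0.01 over all genes. With saline 7 of 35 members rose against wild type, none fell and 28 did not pass, where 3.21% of all genes were called higher and 1.91% lower. The median there was 0.61 over the members, with 34 of 35 above 0, and 0.01 over all genes. Between atrasentan and wild type 1 member fell, none rose and 34 did not pass, where 14.5% of all genes were called lower and 14.7% higher. That median was -0.04, with 15 members above 0 and 20 below, and the single values ran from -1.15 to 1.14. The comparisons share their libraries, so a high saline group enters both of the comparisons it is part of.

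The count of members that rose with saline against wild type depended on single libraries. It was 0 when saline library 1 or 3 or wild type library 1, 2, 3 or 5 was left out, and 1 without saline library 5 or wild type library 4. It was 2 without atrasentan library 1, 3 without atrasentan library 3 or 4, 16 without atrasentan library 6, 17 without saline library 2 and 18 without saline library 4. None of the 7 members was called in all 17 of these fits. Acaa2 was called in 11, Ppara in 9, Pex11a in 8, Cpt2 and Hadh in 6, Acadl in 5 and Acox3 in 3. With atrasentan against saline the count of members that fell was between 16 and 28, 16 of the 24 were called in every fit, and the count was 7 without saline libraries 1 and 3 together. Those 7 were Ppara, Slc27a2, Abcd3, Cpt2, Acadm, Acox2 and Pex11a. With atrasentan against wild type the count was 0 without wild type library 3, 2 without atrasentan library 2 or 5, saline library 4 or wild type library 4, and 6, all lower, without atrasentan library 6. Without atrasentan library 2 or 5 or wild type library 4 the added call was Cpt1a, which was higher with atrasentan. The count of all genes called moved as well over these 17 fits. It ran from 216 to 1523 with saline against wild type and from 4361 to 6338 with atrasentan against saline. With atrasentan against wild type it ran from 4092 to 5622. All-gene counts without saline libraries 1 and 3 together are given in the last section.

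**Figure D1:**
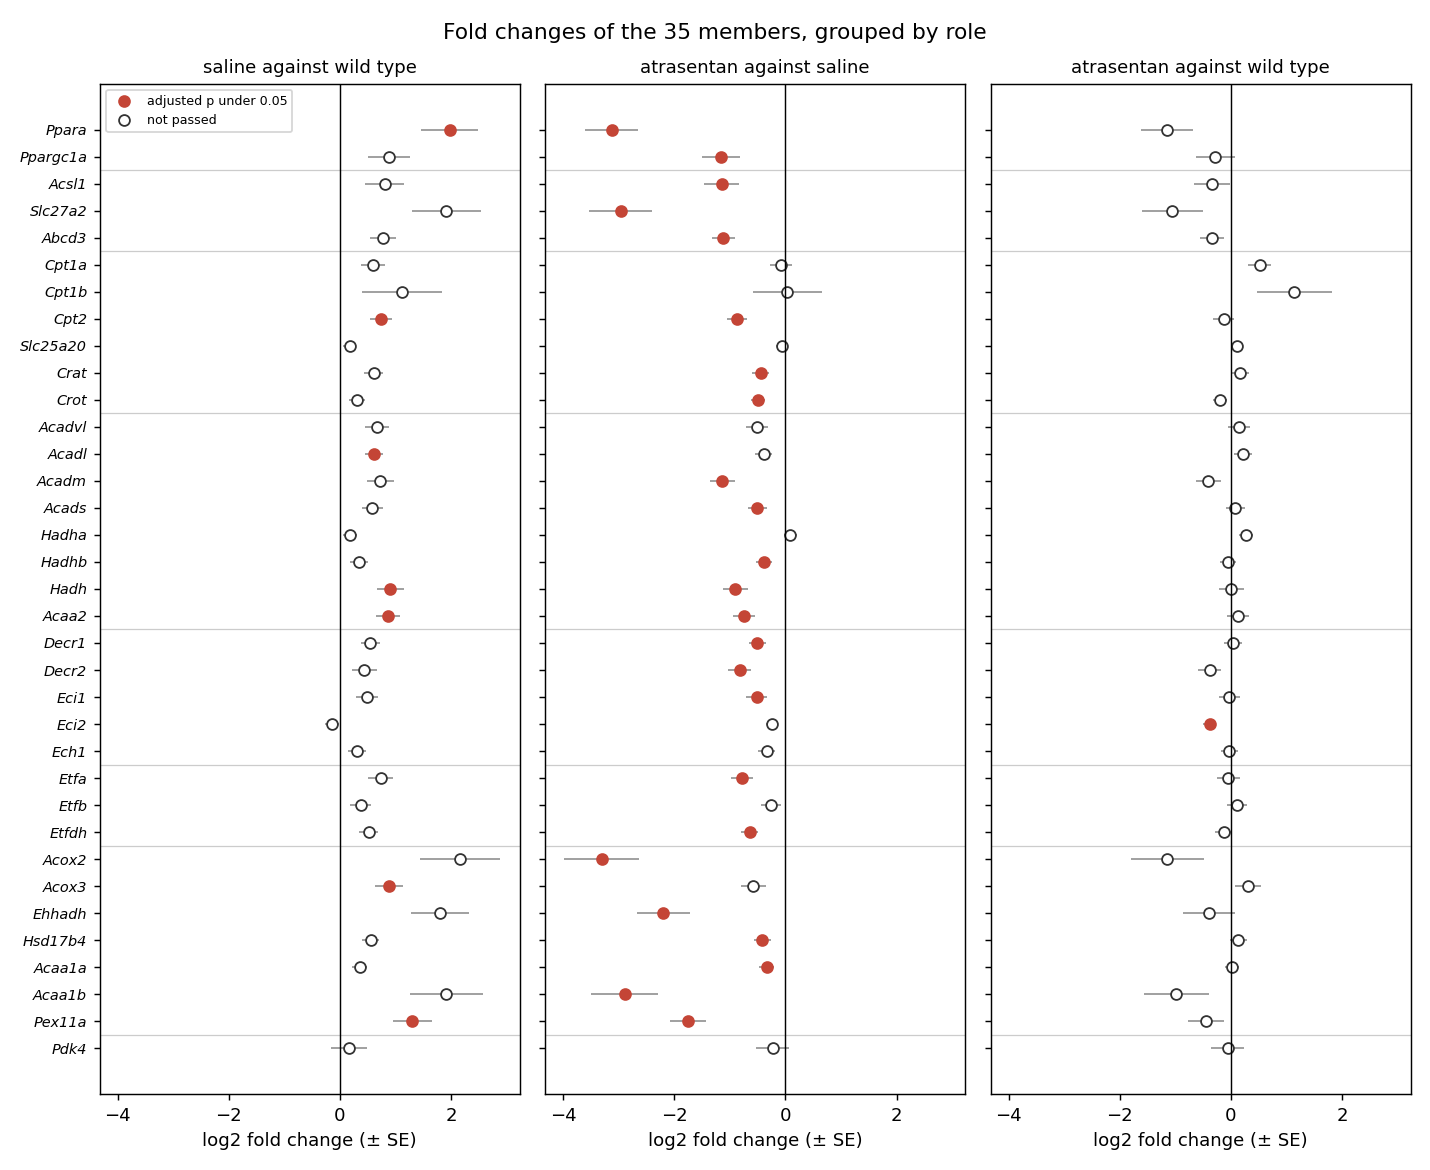
Log2 fold change (x axis, ± SE from the edgeR fit of all 17 libraries) of each of the 35 members (rows, grouped by role) in saline against wild type, atrasentan against saline and atrasentan against wild type, with filled points for an adjusted p under 0.05. The middle panel has 24 filled points, all left of 0, the left panel has 7, all right of 0, and the right panel has 1.

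The proximal tubule markers moved with the members from library to library, though not in every one. Their part in the result was not tested. Saline library 1 held the highest level of 30 of the 35 members over all 17 libraries, and saline libraries 1 and 3 together held that of 31. These were also the libraries with the highest proximal tubule means, 7.86 and 7.85 log2 CPM. Within the atrasentan group, library 6 was the highest for 30 members and had the highest proximal tubule mean of its group (5.53). At the low end of that group the match was weaker. Atrasentan library 7 had the lowest proximal tubule mean (2.32) and was the lowest for 5 members, while library 2 (3.30) was the lowest for 11. Within the saline group, library 4 was the lowest for 27 members and had the lowest proximal tubule mean (5.66). Of the 22 tubule markers 20 fell and none rose with atrasentan against saline, 11 rose and 1 fell with saline against wild type, and 9 fell and 1 rose with atrasentan against wild type. Markers of other nephron segments and cell types moved as well. Of 12 distal tubule and collecting duct markers 3 rose with saline against wild type (median 1.91) and 5 fell with atrasentan against saline (median -1.35), and of 8 loop of Henle markers 2 fell with atrasentan against saline (median -1.14). Both lists had their highest means in saline libraries 1 and 3 and, within the atrasentan group, in library 6. With atrasentan against saline 7 of 10 macrophage markers, 9 of 12 glomerular endothelium markers and 6 of 12 mesangium markers rose and none fell, while 6 of 12 podocyte markers fell and none rose. The part of these lists in the result was not tested either. The mean over the 35 members was 5.34 ± 0.33 log2 CPM with atrasentan, 6.23 ± 0.54 with saline and 5.57 ± 0.12 in the wild type.

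**Figure D2:**
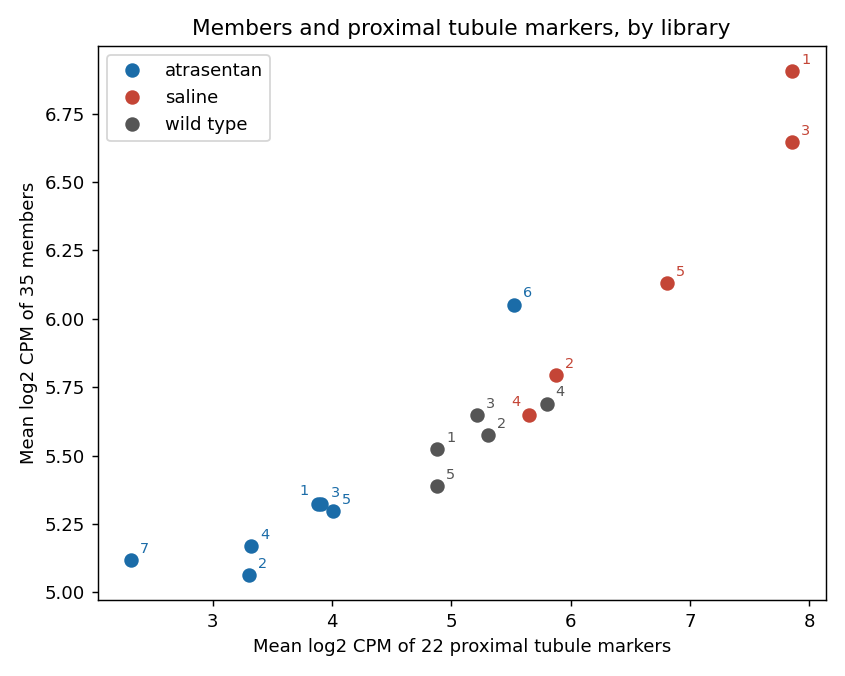
Mean log2 CPM of the 35 members (y axis) against that of 22 proximal tubule markers (x axis), 1 point per library, labelled with its number within the group. Saline libraries 1 and 3 lie highest on both axes, and 6 of the 7 atrasentan libraries lie below every other library on both axes, with library 6 among the saline and wild type libraries.

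When the proximal tubule mean was put into the fit as a covariate, no member was called in either comparison with saline. With that covariate 22 genes of all tested (0.124%) were called between atrasentan and saline, and 47 (0.265%) between saline and wild type. The member median became 0.32 for atrasentan against saline and 0.03 for saline against wild type. The proximal tubule means of the atrasentan and saline libraries do not overlap (at most 5.53 with atrasentan and at least 5.66 with saline), so the treatment and the marker level cannot be told apart in that fit. Among the saline libraries only library 4 (5.66) had a mean within the wild type range (4.88 to 5.80). For saline against wild type, group and marker level can therefore hardly be told apart either. For atrasentan against wild type the same fit called 11 of 35 members higher and none lower, where 13% of all genes were called higher. The 11 were Cpt1a, Cpt1b, Crat, Acadvl, Acadl, Acads, Hadha, Hadh, Acaa2, Acox3 and Hsd17b4, and only atrasentan library 6 had a tubule marker mean within the wild type range.

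Ppara (ENSMUSG00000022383.13, chr15:85734983-85802819 on the plus strand of GRCm38), the receptor itself, was among the members with the largest changes. Its level was 0.989 CPM in the lowest, 1.73 in the median and 7.86 in the highest atrasentan library. The saline libraries had 36.8, 17.8, 33.7, 6.67 and 18.5 CPM and the wild type libraries 3.66, 6.27, 7.24, 7.70 and 4.07 CPM. All atrasentan libraries except the highest lay below every saline and wild type library, and saline library 4 lay within the wild type range. Ppara fell by 3.12 ± 0.47 on the log2 scale with atrasentan against saline (SE, adjusted p = 0.000289, 8.71-fold) and rose by 1.97 ± 0.51 with saline against wild type (adjusted p = 0.0365). Atrasentan against wild type gave -1.15 ± 0.46 (adjusted p = 0.0699). Without atrasentan library 6 that value was -1.74 and passed (adjusted p = 0.00203). Without saline libraries 1 and 3 the fall against saline was kept (-2.47, adjusted p = 0.00552) and the rise against wild type was not called (1.30, adjusted p = 0.376).

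Ppargc1a encodes PGC-1alpha, a coactivator that works with PPAR-alpha and drives the making of mitochondria. It had 10.4 CPM in the lowest, 15.7 in the median and 29.7 in the highest atrasentan library, 64.1, 13.4, 57.2, 17.7 and 35.5 CPM in the saline libraries, and 15.8, 20.9, 26.7, 19.6 and 19.3 CPM in the wild type libraries. Saline libraries 2 and 4 lay at the level of the other groups, and the remaining saline libraries lay above all others. Ppargc1a fell by 1.16 ± 0.34 with atrasentan against saline (adjusted p = 0.0157) and was not called with saline against wild type (0.88 ± 0.38, adjusted p = 0.179). The fall lost its call without saline library 1 or 3, where the highest adjusted p was 0.0598.

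The 3 genes of fatty acid activation and import all fell with atrasentan against saline, and none passed against wild type. Slc27a2 (chr2:126552407-126588243, plus strand), a fatty acid transport protein that also activates very long chains, had 16.9 CPM in the lowest, 50.4 in the median and 230.4 in the highest atrasentan library. It had 997, 225, 847, 172.9 and 415.5 CPM in the saline libraries and 154.2, 139.6, 146.2, 188.5 and 77.0 CPM in the wild type libraries. The highest atrasentan library lay above all wild type libraries, the other atrasentan libraries lay below all of them, and saline library 4 lay within the wild type range. The change was -2.97 ± 0.57 with atrasentan against saline (adjusted p = 0.00113), 1.91 ± 0.62 with saline against wild type (adjusted p = 0.0774) and -1.05 ± 0.55 with atrasentan against wild type (adjusted p = 0.162), the last of which passed without atrasentan library 6 (-1.78, adjusted p = 0.00575). Acsl1, the long-chain acyl-CoA synthetase, and Abcd3, which carries acyl-CoA into peroxisomes, fell by 1.15 ± 0.32 and 1.11 ± 0.21 with atrasentan against saline.

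**Figure D3:**
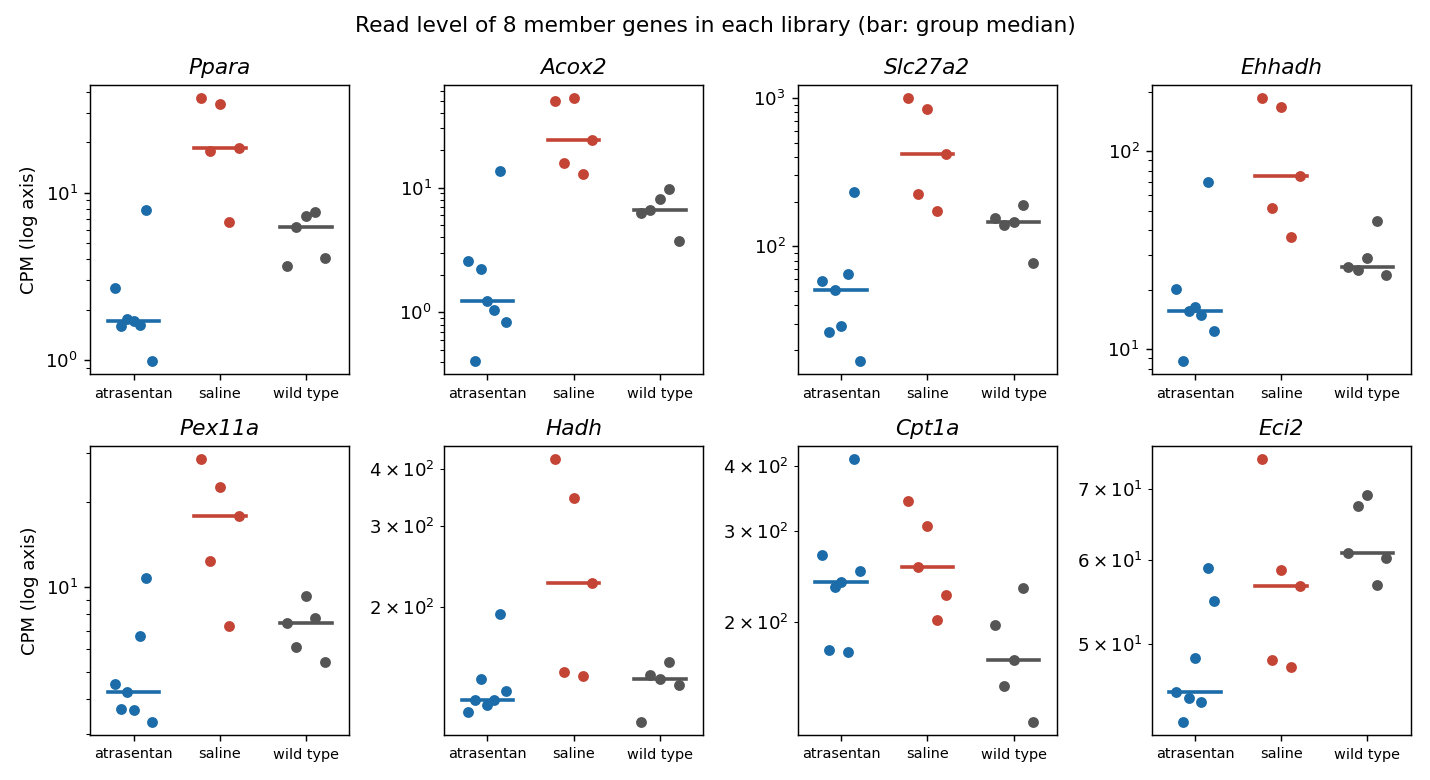
CPM on a log axis (y) of 8 members in each library of the atrasentan, saline and wild type groups, with a bar at the group median. The 7 atrasentan points of Ppara run from 0.989 to 7.86 CPM and the 5 saline points from 6.67 to 36.8 CPM, while the Cpt1a points of these groups overlap over most of their range.

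In the carnitine shuttle, neither gene of the entry step passed in the fit of all 17 libraries, while 3 of the 6 shuttle genes fell with atrasentan against saline. Cpt1a (chr19:3322334-3385733, plus strand), the outer membrane enzyme whose activity sets the rate of entry, had 175.4 CPM in the lowest, 239.7 in the median and 413.3 in the highest atrasentan library. It had 342.3, 255.4, 306.9, 202.2 and 226.1 CPM in the saline libraries and 197.2, 150.4, 169.5, 233.2 and 128.6 CPM in the wild type libraries. The atrasentan libraries spanned the whole saline range and reached below and above it. The log2 fold change was -0.09 ± 0.20 with atrasentan against saline (adjusted p = 0.769), 0.60 ± 0.22 with saline against wild type (adjusted p = 0.11) and 0.52 ± 0.20 with atrasentan against wild type (adjusted p = 0.0648). With 1 library left out Cpt1a was called higher with atrasentan against wild type in 3 of 17 fits (without atrasentan library 2 or 5 or wild type library 4, lowest adjusted p = 0.0354) and higher with saline against wild type in 1 (without atrasentan library 6, adjusted p = 0.0492). The muscle form Cpt1b had 1 to 28 reads in a library, and 93.0% of the stretches of 50 bases, the read length, in its transcript also occur in the read-through gene model Gm44502. Its highest level was 0.797 CPM with atrasentan, 0.447 CPM with saline and 0.147 CPM in the wild type, and the groups overlapped. No comparison of Cpt1b passed (0.03 ± 0.62 with atrasentan against saline, 1.11 ± 0.72 with saline against wild type and 1.14 ± 0.67 with atrasentan against wild type).

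Cpt2 (chr4:107903981-107923610, minus strand), the inner membrane enzyme that regenerates acyl-CoA, changed in both comparisons with saline. Its level was 33.9 CPM in the lowest, 39.9 in the median and 64.0 in the highest atrasentan library, 110.7, 58.9, 94.9, 49.8 and 73.1 CPM in the saline libraries, and 46.9, 52.4, 49.8, 46.6 and 36.5 CPM in the wild type libraries. Saline libraries 1, 3 and 5 lay above all libraries of the other groups. Cpt2 fell by 0.87 ± 0.18 with atrasentan against saline (adjusted p = 0.00213) and rose by 0.74 ± 0.20 with saline against wild type (adjusted p = 0.0432). Crat and Crot, which move acetyl and medium-chain groups onto carnitine, fell by 0.45 ± 0.16 and 0.50 ± 0.13 with atrasentan against saline (adjusted p = 0.0386 and 0.00752). Slc25a20, the carnitine exchanger of the inner membrane, gave -0.06 ± 0.11 there and 0.17 ± 0.12 with saline against wild type, and did not pass in either. Over the 6 shuttle genes the median log2 fold change was -0.27 with atrasentan against saline, 0.60 with saline against wild type and 0.14 with atrasentan against wild type.

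Of the 8 enzymes of the mitochondrial cycle, 5 fell and none rose with atrasentan against saline, and 3 rose and none fell with saline against wild type. Hadh (chr3:131233419-131272101, minus strand), the dehydrogenase of short and medium 3-hydroxyacyl-CoA, had 118.2 CPM in the lowest, 125.5 in the median and 192.9 in the highest atrasentan library, 419.9, 143.8, 345.0, 140.9 and 225.0 CPM in the saline libraries, and 112.3, 141.7, 139.3, 151.2 and 134.9 CPM in the wild type libraries. Saline libraries 2 and 4 were at the wild type level, and saline libraries 1, 3 and 5 above every other library. Hadh fell by 0.90 ± 0.22 with atrasentan against saline (adjusted p = 0.00589) and rose by 0.91 ± 0.25 with saline against wild type (adjusted p = 0.0429), and atrasentan against wild type gave 0.01 ± 0.23. Acaa2, the thiolase that ends each round, had 219.0 CPM in the lowest, 246.6 in the median and 341.9 in the highest atrasentan library, 669.7, 288.6, 549.8, 245.1 and 380.5 CPM in the saline libraries, and 201.1, 259.0, 212.7, 268.2 and 227.8 CPM in the wild type libraries. It fell by 0.74 ± 0.20 against saline (adjusted p = 0.00931), and rose by 0.87 ± 0.22 with saline against wild type (adjusted p = 0.0325). Here too saline library 4 lay among the atrasentan and wild type libraries.

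The 4 acyl-CoA dehydrogenases, which open each round and are named for the chain they take, gave 2 calls with atrasentan against saline. The medium-chain enzyme Acadm fell by 1.13 ± 0.22 with atrasentan against saline (adjusted p = 0.00128) and the short-chain enzyme Acads by 0.50 ± 0.17 (adjusted p = 0.0304). The very long-chain enzyme Acadvl gave -0.52 ± 0.20 (adjusted p = 0.0505) and the long-chain enzyme Acadl -0.39 ± 0.15 (adjusted p = 0.059). Acadl was the one of the 4 called with saline against wild type, where it rose by 0.61 ± 0.17 (adjusted p = 0.0455). The differences between the 4 were not tested. Hadha and Hadhb encode the alpha and beta subunits of the trifunctional protein, which carries out the later steps on long chains, and the genes lie next to each other on chromosome 5 on opposite strands. Hadhb fell by 0.39 ± 0.14 with atrasentan against saline (adjusted p = 0.041), and Hadha gave 0.09 ± 0.12 (adjusted p = 0.576). The fall of Hadhb was called in 8 of the 17 fits with 1 library left out. Hadha had 101.6 to 144.5 CPM with atrasentan, 94.7 to 140.8 CPM with saline and 88.2 to 111.4 CPM in wild type. Of the 50-base stretches of Hadhb 62.4% also occur in the gene model Gm13910, so reads in the shared parts may be missing from its count. Acadvl overlaps Dvl2 on the opposite strand over 42.9% of its exon bases, and the library kit does not mark strand.

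The auxiliary enzymes reshape unsaturated chains so that they can enter the cycle, and 3 of these 5 fell with atrasentan against saline. The dienoyl-CoA reductases Decr1, in mitochondria, and Decr2, in peroxisomes, fell by 0.51 ± 0.16 and 0.83 ± 0.20, and the enoyl-CoA isomerase Eci1 by 0.52 ± 0.18. Ech1, a dienoyl-CoA isomerase, was not called (-0.33 ± 0.15, adjusted p = 0.0979). The exception in pattern was Eci2 (chr13:34977748-35027096, minus strand), a second enoyl-CoA isomerase. It had 42.2 CPM in the lowest, 45.0 in the median and 59.0 in the highest atrasentan library, 74.8, 48.3, 58.7, 47.6 and 56.7 CPM in the saline libraries, and 60.9, 67.5, 69.1, 56.9 and 60.2 CPM in the wild type libraries. Its group mean was highest in wild type, as for no other member, and 6 of 7 atrasentan libraries lay below every wild type library. Eci2 was the 1 member called between atrasentan and wild type, with a fall of 0.38 ± 0.11 (adjusted p = 0.0184), and the call was lost without wild type library 3 (adjusted p = 0.0547). Atrasentan against saline gave -0.24 ± 0.11 (adjusted p = 0.107) and saline against wild type -0.14 ± 0.12 (adjusted p = 0.584). Of its 50-base stretches 7.19% also occur in Eci3.

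The electron transfer flavoprotein takes the electrons of the acyl-CoA dehydrogenases to the respiratory chain. Its alpha subunit Etfa fell by 0.78 ± 0.20 with atrasentan against saline (adjusted p = 0.00779) and its dehydrogenase Etfdh by 0.65 ± 0.15 (adjusted p = 0.0038). The beta subunit Etfb gave -0.26 ± 0.17 (adjusted p = 0.262), and 67.3% of its 50-base stretches also occur in the overlapping gene model Gm45233. None of these 3 passed with saline against wild type, where their log2 fold changes ran from 0.37 to 0.74.

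Of the 7 peroxisomal genes 6 fell and none rose with atrasentan against saline (median -1.75), and 2 rose and none fell with saline against wild type (median 1.30). Acox2 (ENSMUSG00000021751.13, chr14:8225511-8259353, minus strand), the oxidase of branched chains and bile acid intermediates, had 0.408 CPM in the lowest, 1.22 in the median and 13.6 in the highest atrasentan library. The saline libraries had 49.3, 15.9, 52.3, 12.8 and 24.3 CPM and the wild type libraries 6.23, 6.66, 8.06, 9.77 and 3.77 CPM. Acox2 was the 1 member whose saline libraries all lay above all wild type libraries, where 3.46% of all genes had such a gap, and its highest atrasentan library lay just above its lowest saline library. The change was -3.31 ± 0.67 with atrasentan against saline (adjusted p = 0.0016, 9.88-fold lower), 2.16 ± 0.72 with saline against wild type (adjusted p = 0.0846) and -1.14 ± 0.65 with atrasentan against wild type (adjusted p = 0.201). Without atrasentan library 6 the last value was -2.31 and passed (adjusted p = 0.00119).

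Ehhadh (chr16:21761287-21787807, minus strand), the bifunctional enzyme of the inducible peroxisomal route, had 8.74 CPM in the lowest, 15.6 in the median and 70.3 in the highest atrasentan library, 186.0, 51.9, 168.2, 36.8 and 75.3 CPM in the saline libraries, and 26.2, 25.2, 28.9, 44.7 and 23.7 CPM in the wild type libraries. The 6 lower atrasentan libraries lay below every wild type library. Ehhadh fell by 2.20 ± 0.48 with atrasentan against saline (adjusted p = 0.00251), and saline against wild type gave 1.80 ± 0.53 (adjusted p = 0.0548). The thiolase gene Acaa1b (chr9:119148023-119157093, minus strand) had 2.53 CPM in the lowest, 6.98 in the median and 33.4 in the highest atrasentan library, 134.6, 23.8, 116.8, 21.5 and 46.6 CPM in the saline libraries, and 21.9, 16.4, 19.7, 23.1 and 9.93 CPM in the wild type libraries. It fell by 2.90 ± 0.61 against saline (adjusted p = 0.00199), and again 6 of the 7 atrasentan libraries lay below every wild type library. Its paralog Acaa1a fell by 0.34 ± 0.13 (adjusted p = 0.0471), a call made in 5 of the 17 fits with 1 library left out. The paralogs share 34.0% of the 50-base stretches of Acaa1a and 35.6% of those of Acaa1b, so reads in the shared parts may be missing from both.

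Pex11a (chr7:79735957-79743131, minus strand), a membrane protein of peroxisome division, had 3.32 CPM in the lowest, 4.25 in the median and 10.8 in the highest atrasentan library, 28.6, 12.4, 22.8, 7.27 and 17.9 CPM in the saline libraries, and 7.47, 6.12, 9.29, 7.73 and 5.42 CPM in the wild type libraries. Saline library 4 lay within the wild type range and the other saline libraries lay above all libraries of the other groups. Pex11a fell by 1.75 ± 0.32 with atrasentan against saline (adjusted p = 0.000841) and rose by 1.30 ± 0.35 with saline against wild type (adjusted p = 0.0429). Acox3, an oxidase of branched chains, had 49.4 CPM in the lowest, 53.3 in the median and 99.5 in the highest atrasentan library, 136.7, 58.7, 122.7, 52.2 and 71.6 CPM in the saline libraries, and 50.4, 41.0, 44.6, 57.2 and 45.0 CPM in the wild type libraries. It rose by 0.89 ± 0.25 with saline against wild type (adjusted p = 0.0488), while atrasentan against saline gave -0.58 ± 0.23 (adjusted p = 0.0597). Its highest atrasentan library lay above saline libraries 2, 4 and 5. Hsd17b4, the other peroxisomal bifunctional enzyme, fell by 0.41 ± 0.15 with atrasentan against saline (adjusted p = 0.0383).

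Pdk4, a kinase that turns off pyruvate dehydrogenase and so favours fat over glucose as fuel, is a known PPAR-alpha target and passed in no comparison. It had 13.6 CPM in the lowest, 20.6 in the median and 41.5 in the highest atrasentan library, 24.1, 47.0, 15.8, 19.0 and 20.6 CPM in the saline libraries, and 17.4, 19.0, 17.5, 30.4 and 28.3 CPM in the wild type libraries. The groups overlapped over most of their range, and the highest saline library was library 2, not 1 or 3. The log2 fold change was -0.23 ± 0.30 with atrasentan against saline, 0.17 ± 0.32 with saline against wild type and -0.06 ± 0.30 with atrasentan against wild type (adjusted p = 0.576, 0.825 and 0.901).

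PPAR-alpha binds a direct repeat of AGGTCA with 1 base between the copies. The motif AGGTCANAGGTCA was searched on both strands in RefSeq promoter windows of GRCm38.p6, from 250 bases before to 50 bases after a start, and the table held a window for 30 of the 35 members. No member window held the motif with at most 1 mismatch, against 0.644% of all 27025 genes. With at most 2 mismatches 3 members held it (10%), against 4.4% of all genes. A single copy of AGGTCA, which is part of the full motif, stood in 4 member windows (13.3%), those of Acadm, Acadvl, Cpt1a and Slc27a2, against 18.1% of all genes. The 3 windows with a full-length match are printed to show the site in members with different fold changes: Acox2 had the widest change with atrasentan against saline, Etfa fell by less and Slc25a20 was not called. Capitals mark the match, which starts at position 10 after the start in Acox2 (1 of its 2 windows), at position -77 in Etfa, where the motif reads on the opposite strand, and at position 7 in Slc25a20. A match is a description of letters and not a bound site. The windows lie at chr14:8258790-8259089 on the minus strand, chr9:55512194-55512493 on the minus strand and chr9:108661886-108662185 on the plus strand, and each is written along its gene's strand.
Acox2: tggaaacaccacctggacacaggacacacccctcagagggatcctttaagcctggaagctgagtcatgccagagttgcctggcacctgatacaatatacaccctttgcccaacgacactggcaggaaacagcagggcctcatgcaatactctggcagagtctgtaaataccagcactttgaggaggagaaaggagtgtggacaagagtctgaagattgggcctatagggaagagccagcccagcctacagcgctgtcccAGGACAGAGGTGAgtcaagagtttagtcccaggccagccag
Etfa: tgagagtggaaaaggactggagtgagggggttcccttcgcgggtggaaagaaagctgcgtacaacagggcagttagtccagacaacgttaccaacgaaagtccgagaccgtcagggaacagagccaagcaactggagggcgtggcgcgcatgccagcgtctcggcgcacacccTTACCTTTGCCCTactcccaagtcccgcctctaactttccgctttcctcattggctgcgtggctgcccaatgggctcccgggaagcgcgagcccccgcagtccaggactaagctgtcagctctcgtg
Slc25a20: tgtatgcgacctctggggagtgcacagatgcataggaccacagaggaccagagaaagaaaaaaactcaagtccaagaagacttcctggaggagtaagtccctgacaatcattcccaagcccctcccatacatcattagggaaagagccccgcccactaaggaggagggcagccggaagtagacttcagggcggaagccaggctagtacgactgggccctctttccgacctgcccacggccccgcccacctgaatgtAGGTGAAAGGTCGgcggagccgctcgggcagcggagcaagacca

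Compared per length, as TPM, which divides the reads of a gene by its exon length before scaling, Acaa2 and Ech1 led the members in every group. Acaa2 came first, with a mean of 551 TPM with atrasentan, 954.8 with saline and 590.5 in the wild type, and Ech1 came next, with 392.6 TPM with atrasentan, 518.7 with saline and 469.7 in the wild type. Cpt1b was last, with 0.246 TPM with atrasentan, 0.249 with saline and 0.129 in the wild type. Reads with several alignments or on more than 1 gene were not counted, and 93.0% of its 50-base stretches occur in another gene model. This share was over 5% in 6 members (Cpt1b, Hadhb, Eci2, Etfb, Acaa1a and Acaa1b), so their TPM and ranks may be too low. The exon length used counts all annotated exons of a gene. It was 2284 bases for Ech1 and 1516 for Acaa2, with longest coding transcripts of 1267 and 1516 bases. The order of the members, Acaa2 and Ech1 included, depends on the length chosen. Some members took another place in each group. Slc27a2 averaged 59.3 TPM (rank 15 of 35) with atrasentan, 472.6 TPM (rank 3) with saline and 144.4 TPM (rank 5) in the wild type. Acaa1b was at rank 29, 13.5 and 26 in the same order. Ppara was at 2.23 ± 2.04 TPM with atrasentan, 19.9 ± 9.77 with saline and 5.77 ± 1.82 in the wild type (SD). The spread between animals was wide with saline: the coefficient of variation of CPM had a median over the members of 19.0% with atrasentan, 36.8% with saline and 12.9% in the wild type. The highest was 150% for Acox2 with atrasentan, where library 6 stood apart.

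**Figure D4:**
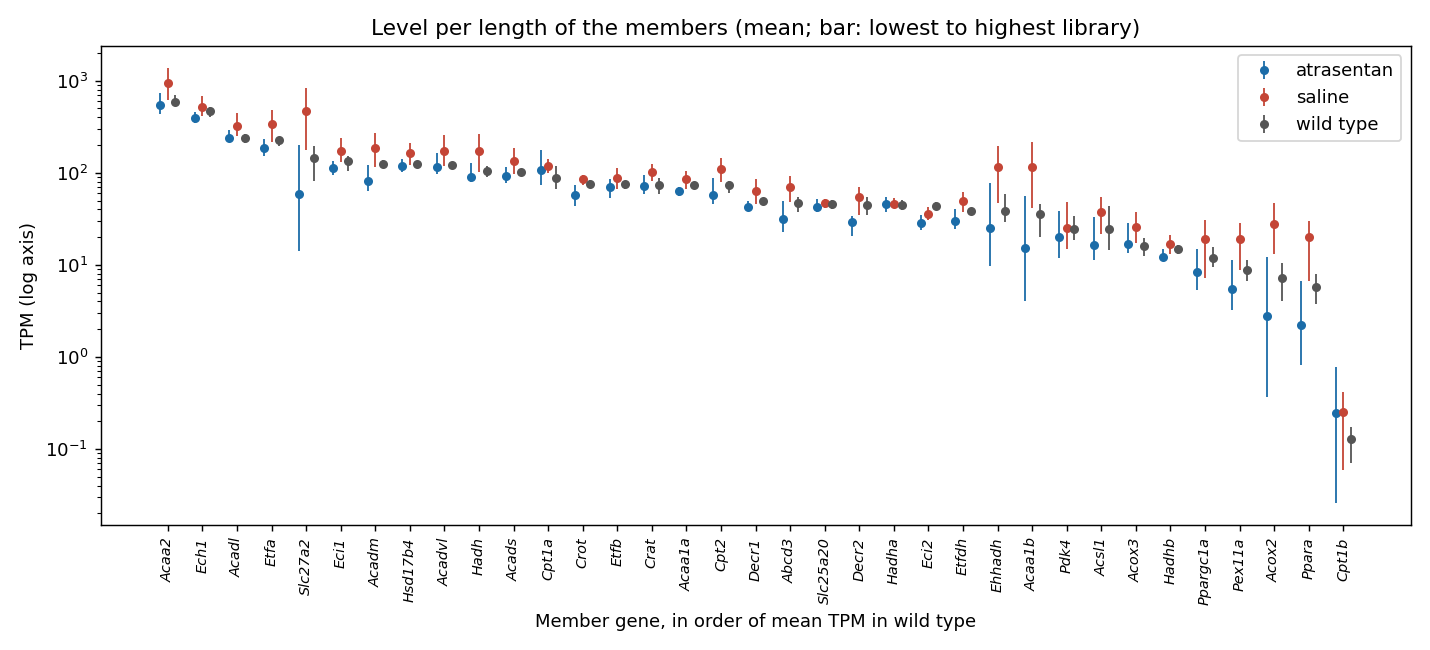
Mean TPM (y, log axis) of each member in the atrasentan, saline and wild type groups, with bars from the lowest to the highest library and members ordered by their wild type mean. Acaa2 is highest and Cpt1b lowest in all 3 groups, and Slc27a2, Ehhadh, Acaa1b, Acox2 and Ppara show the widest gaps between the atrasentan and saline means. TPM were taken over all annotated exons of a gene, a choice on which the order depends. Most 50-base stretches of Cpt1b also occur in another gene model, so its TPM may be too low.

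Other genes of the same pathways were counted from lists that hold no member. Of 33 other PPAR-alpha targets tested, 21 fell and 3 rose with atrasentan against saline (median -1.47), 7 rose and none fell with saline against wild type (median 1.21), and 3 rose and none fell with atrasentan against wild type (median -0.39). The shares of all genes called lower and higher were 18.5% and 15.3% in the first of these comparisons, 1.91% and 3.21% in the second and 14.5% and 14.7% in the third. The 7 rises with saline depended on single libraries. The count was 0 without saline library 1 or wild type library 1, 2 or 5, 1 without saline library 3 or wild type library 3, 2 without wild type library 4, 4 without atrasentan library 1 or saline library 5, 13 without saline library 2, 15 without atrasentan library 6 or saline library 4, and 0 without saline libraries 1 and 3 together. Without those 2 libraries 8 targets fell and 1 rose with atrasentan against saline. With atrasentan against wild type 3 rose and 13 fell without atrasentan library 6, and 5 rose and 2 fell without atrasentan library 5. The count of all genes called also moved with the library left out, as given above. The largest falls with atrasentan against saline were those of the fatty acid omega-hydroxylases Cyp4a12b (-3.36 ± 0.92), Cyp4a31 (-3.35 ± 0.63), Cyp4a10 (-3.26 ± 0.72) and Cyp4a14 (-3.18 ± 0.78). These are close copies of each other, so reads they share may be missing and their values are uncertain. Without saline libraries 1 and 3 the fall of Cyp4a31 kept its call (adjusted p = 0.0243), and those of Cyp4a12b, Cyp4a10 and Cyp4a14 did not (adjusted p = 0.181, 0.0782 and 0.134). Cyp4a10 averaged 19.5 ± 25.3 CPM with atrasentan, 186.8 ± 171.1 with saline and 30.3 ± 9.90 in the wild type. With saline against wild type the largest rises were those of Cyp4a12b (4.47 ± 1.12), Cyp4a12a (2.70 ± 0.68), the glycerol kinase Gk (1.83 ± 0.50) and the epoxide hydrolase Ephx2 (1.81 ± 0.50). None of these 4 rises was called in all 17 fits with 1 library left out: Cyp4a12b was called in 10, Cyp4a12a in 11, Gk in 8 and Ephx2 in 5. None was called without saline libraries 1 and 3, where the adjusted p-values were 0.324, 0.24, 0.522 and 0.533 in the same order.

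Plin2, which coats lipid droplets, was 1 of the 3 targets that rose with atrasentan against saline. It averaged 131.2 ± 20.7 CPM with atrasentan, 94.6 ± 6.99 with saline and 83.2 ± 20.2 in the wild type, and rose with atrasentan by 0.47 ± 0.14 against saline and by 0.66 ± 0.14 against wild type (adjusted p = 0.0139 and 0.0018). The rise against saline was called in all 17 fits with 1 library left out, and lost its call without saline libraries 1 and 3 (0.41, adjusted p = 0.112). Ucp2, a carrier of the inner mitochondrial membrane, rose by 1.21 ± 0.21 with atrasentan against wild type (adjusted p = 0.000455) and by 0.78 ± 0.22 with saline against wild type (adjusted p = 0.0488). The first of these rises was called in all 17 fits with 1 library left out and the second in 4 of them. Of 30 other beta-oxidation genes 18 fell and 1 rose with atrasentan against saline (median -0.41), 6 rose and none fell with saline against wild type (median 0.51), and 2 rose and none fell with atrasentan against wild type (median -0.03), beside the same shares of all genes. The count of rises with saline was 0 without saline library 1 or 3 or wild type library 2, 3 or 5, 1 without wild type library 1 or 4, 14 without saline library 4 and 15 without saline library 2. Without saline libraries 1 and 3 together, none rose with saline and 6 fell with atrasentan against saline. Without atrasentan library 6, 2 rose and 2 fell with atrasentan against wild type. Acad11, an acyl-CoA dehydrogenase, had the largest of the rises with saline (1.32 ± 0.34, adjusted p = 0.0369), a call made in 10 of the 17 fits with 1 library left out and lost without saline libraries 1 and 3 (0.54, adjusted p = 0.527).

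Of 26 partners and regulators of PPAR-alpha 19.2% fell and 11.5% rose with atrasentan against saline (18.5% and 15.3% of all genes), 3.85% rose and none fell with saline against wild type (3.21% and 1.91%), and 7.69% fell and 15.4% rose with atrasentan against wild type (14.5% and 14.7%). The 1 gene that rose with saline was Prkaa2, a catalytic subunit of AMP-activated kinase, which was called in 10 of the 17 fits with 1 library left out. Pparg, the related receptor best known from fat cells, was higher with atrasentan than in both other groups. Ppara had its lowest mean with atrasentan. Pparg averaged 61.7 ± 9.09 CPM with atrasentan, 36.1 ± 3.88 with saline and 28.0 ± 4.47 in the wild type, and all atrasentan libraries lay above all libraries of the other groups. Such a gap was not particular to Pparg: 2 of the 26 genes had it above saline and 3 above wild type. Pparg rose by 0.77 ± 0.12 against saline (adjusted p = 0.000288) and by 1.14 ± 0.12 against wild type (adjusted p = 1.08e-05). The retinoid receptor gene Rxrg fell by 3.14 ± 0.70 with atrasentan against saline (adjusted p = 0.003), at low levels of 0.234 ± 0.237 CPM with atrasentan and 2.11 ± 1.33 CPM with saline. Ppargc1b, a relative of Ppargc1a, and Pdk2, a kinase of pyruvate dehydrogenase like Pdk4, fell with atrasentan against wild type by 0.56 ± 0.20 and 0.93 ± 0.26 (adjusted p = 0.0482 and 0.0114). Pdk2 was called in all 17 fits with 1 library left out and Ppargc1b in 6, with a highest adjusted p of 0.124. Among the adipocyte and muscle markers, which would mark surrounding fat or muscle, 2 of 10 had enough reads to test, and the list summed to 2.96 to 7.55 CPM with atrasentan, 3.42 to 5.82 CPM with saline and 2.86 to 6.81 CPM in wild type.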

How the data were processed

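RNA-seq libraries of 17 mice were analysed from the table of raw read counts that the authors deposited (53379 genes). Per the submitters' processing notes the build was GRCm38, and the tools named are DESeq2, edgeR, HTSeq, limma and STAR. The sources used here give no versions, tool roles, annotation release or strand setting. Per the labels' protocols, poly(A) RNA was sequenced as single reads of 50 bases with a kit that does not mark strand. Lines that name no gene were kept out of library sizes and tests: reads with several alignments (23.4% to 31.8%), outside genes (3.17% to 8.58%) and on more than 1 gene (2.93% to 3.37%). The authors' normalized log2 table was not used.

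The members and gene lists were chosen with earlier results of these data known. Symbols, coordinates (1-based) and exon lengths came from GENCODE M21, which matched 53274 IDs, 50604 of them with their version. Groups were compared with edgeR 4.0.16 in R 4.3.3 (quasi-likelihood F test, TMM, filterByExpr, 1 fit of all 17 libraries, biological coefficient of variation 0.312). P-values were adjusted over 17766 genes by the Benjamini-Hochberg method, two-sided, and called under 0.05. Standard errors were taken from the fold change and its F statistic. CPM use TMM library sizes, and list means were taken on the log2 CPM scale (prior count 2). TPM were computed over exon length. Intervals between libraries are SD over mice. The fit was tested on simulated data. All 41 pairs of libraries within a group differed beyond counting error (chi-square per degree of freedom 24 to 247). The labels name a single batch and number no replicates, so numbers follow the sample order. Library numbers in the labels follow the groups. Whether they record the order of preparation is not stated, and if they do, that order and the group cannot be told apart.

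Values per library are given for Ppara, Ppargc1a, Cpt1a, Cpt1b, Pdk4, members called in 2 or more comparisons and, in each comparison, the 6 largest changes among called members. From the other pathway lists the 5 largest called changes per comparison are named. Values of further genes were added after they were seen. Alternatives were other scalings, no low-count filter, DESeq2 1.42.0, limma-voom 3.58.1, the 2 groups alone, each library left out, saline libraries 1 and 3 left out and the tubule marker mean as a covariate. The same alternatives were applied to the other pathway lists after seeing the data.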

Additional observations from a re-analysis of the deposited data

Results flagged for a closer look

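A test for a library far from the rest of its group (Dixon's 95% limit on the gap to the nearest library over the group's range) was passed by 19 of 105 member and group pairs. The limit is made to flag about 1 in 20 independent groups of normally spread values. The 105 pairs share their libraries and CPM were not put on a log scale, so that rate is no yardstick for the count. Of the 19 flags 16 were atrasentan library 6, which was also the library of its group with the highest proximal tubule mean (5.53 log2 CPM). The part of these markers in the result was not tested. It had 7.86 CPM of the receptor Ppara, with the next library of its group at 2.69 CPM. In the activation and import genes it had 104.8 CPM of Acsl1 and 230.4 CPM of Slc27a2. In the carnitine shuttle it had 413.3 CPM of Cpt1a, 0.797 CPM of Cpt1b, 64.0 CPM of Cpt2 and 77.2 CPM of Slc25a20. Among genes of the mitochondrial cycle and electron transfer it had 133.7 CPM of Acadvl, 146.0 CPM of Acadm, 192.9 CPM of Hadh and 91.7 CPM of Etfdh. In the peroxisomal genes it had 13.6 CPM of Acox2, 99.5 CPM of Acox3, 70.3 CPM of Ehhadh and 33.4 CPM of Acaa1b. It also had 41.5 CPM of Pdk4. Without it, Ppara, Slc27a2, Eci2, Acox2, Ehhadh and Acaa1b were called lower with atrasentan than in wild type.

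The other flags were Pdk4 in saline library 2 (47.0 CPM, with the next at 24.1), and Acsl1 (115.8 CPM) and Ehhadh (44.7 CPM) in wild type library 4, which had the highest tubule marker mean of the wild type libraries (5.80 log2 CPM).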

How the results depend on the processing

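No paired analysis was possible because the labels number no replicates. Members called with saline against wild type were 7 in the edgeR fit, 20 with DESeq2, 2 with limma-voom, 0 without saline libraries 1 and 3, 0 with the tubule marker mean as a covariate, and 0 to 18 with 1 library left out. All genes called there were 910, against 1991, 550, 54 and 47 under those settings, 1430 in the fit of the 2 groups alone and 216 to 1523 with 1 library left out. Members called with atrasentan against saline were 24, against 7 without saline libraries 1 and 3, 0 with the covariate and 16 to 28 with 1 library left out (all genes 6001, against 2577, 22 and 4361 to 6338). Members called with atrasentan against wild type were 1, against 2 with upper-quartile factors, 2 with DESeq2, 3 with limma-voom, 2 in the fit of the 2 groups alone, 3 without saline libraries 1 and 3, 11 with the covariate and 0 to 6 with 1 library left out (all genes 5190, against 4092 to 5622). Ppara was the added call with upper-quartile factors and DESeq2. The cause of these moves was not tested.

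With the covariate the median of the members turned to 0.32 for atrasentan against saline and to 0.34 for atrasentan against wild type. For atrasentan against wild type it also turned without atrasentan library 1 (0.0017) and wild type library 2 (0.0042), within -0.10 to 0.0042 over the fits with 1 library left out. For atrasentan against saline, 22 members that fell turned above 0 with the covariate and none was called: Ppargc1a 0.92, Acsl1 0.66, Slc27a2 0.35, Abcd3 0.12, Cpt2 0.098, Crat 0.34, Crot 0.050, Acadm 0.26, Acads 0.33, Hadhb 0.30, Hadh 0.38, Acaa2 0.32, Decr1 0.17, Decr2 0.019, Eci1 0.34, Etfa 0.38, Etfdh 0.24, Ehhadh 0.49, Hsd17b4 0.34, Acaa1a 0.10, Acaa1b 0.61 and Pex11a 0.11. So did Cyp4a12b 0.76, Cyp4a31 0.31, Cyp4a10 0.86, Cyp4a14 0.98 and Rxrg 0.0045. The tubule marker means of the atrasentan and saline libraries do not overlap, so these values cannot separate treatment from marker level. In that fit the median over all genes was 0.097 for atrasentan against saline. The median SE of the members was 0.26 there, against 0.20 without the covariate. A further 75 member values changed sign without a call before or after, 35 of them with the covariate. The falls of Ppargc1a, Crat, Acads, Hadhb, Decr1, Eci1, Hsd17b4 and Acaa1a lost their call in at least 1 fit with a library left out. Of the 17 such fits, Ppargc1a and Decr1 were called in 15, Acads in 12 and Eci1 in 11. Crat and Hsd17b4 were called in 10, Hadhb in 8 and Acaa1a in 5. Differences in the tubule marker means kept their direction and side of the threshold with a prior count of 0.5. Counts of 1 to 28 reads limit Cpt1b.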
